A study of Mus musculus with 8 samples.

Results

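The golgins were examined in mouse bone-derived mesenchymal stem cells (MSCs) kept at 2% or 21% oxygen. Golgins are long coiled-coil proteins that are attached to Golgi membranes at one end and capture incoming vesicles with the other. Different golgins sit on the cis face, where cargo arrives from the endoplasmic reticulum, on the rims of the stack, and on the trans face, where cargo is sorted for the cell surface and endosomes. Bone-forming and cartilage-forming stromal cells secrete large amounts of matrix and rely on this route.

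The set held 10 genes of the 53465 rows of the count table, namely Tmf1, Golga1, Golga2, Golga3, Golga4, Golga5, Golgb1, Gcc1, Gcc2 and Trip11. Each was found by its gene symbol, and 10 of 10 passed the filter on low counts, which 14369 genes passed. The set was chosen by a measured value, because Tmf1 stood among the genes most increased in normoxia in these same samples. The differences between the groups are therefore given for these 10 genes as descriptions, without p-values, and a count of those past the threshold of the fit over all genes is not evidence about the set.

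The hypoxia group held 4 samples cultured at 2% O2 and the normoxia group 4 samples cultured at 21% O2, each numbered 1 to 4 in the labels. Cells of both groups came from C57BL6/N mice aged 3 to 5 months, and no genetic change or drug separated the groups. According to the study's methods, cells of both groups were first grown out of the bone in hypoxia and sorted for absence of CD45 and TER-119 and presence of Sca-1 and CD140a, and the sorted cells were then divided between both oxygen levels. The labels and the study's methods both place the sort on day 12, whereas a figure legend of the study gives an earlier day. By the methods, the normoxia cells thus had a hypoxic culture history, and the hypoxia cells remained in hypoxia. The labels instead describe culture in hypoxia or normoxia before the sort, so the time of the split is not settled by the sources. Because each sample is a bulk culture, a lower level may stem from fewer cells that express a gene or from less RNA per cell, and these cannot be told apart.

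Total counts were between 12898291 and 13433824 in 7 samples and reached 25132141 in hypoxia replicate 1. Of the stromal markers fixed for the sorted cells, 8 of 8 were detected, with a summed level of 2000 to 2288 CPM (counts scaled to the library total) in hypoxia and 2058 to 2512 CPM in normoxia. White blood cell markers were present despite the CD45 gate, 8 of 8 being detected, with 481 to 976 CPM in hypoxia and 625 to 1189 CPM in normoxia. The summed ranges of the groups overlapped for both lists, but single markers moved in both directions. Among the white blood cell markers, Lyz2 rose by 0.56 on the log2 scale (limma-trend adjusted p = 0.022). Csf1r, Fcer1g, Tyrobp and Cd68 differed by -0.59, -0.56, -0.32 and -0.28, and did not pass without the replicate block (limma-trend adjusted p = 0.0998, 0.117, 0.38 and 0.412) but fell with it (adjusted p = 6.71e-09, 3.97e-06, 0.00198 and 0.00276). Among the stromal markers, Cd44 rose by 0.72 (limma-trend adjusted p = 0.013), Nt5e rose by 0.59 (adjusted p = 0.00244) and Eng fell by 0.27 (limma-trend adjusted p = 0.0428). With the replicate block Pdgfra (0.24, limma-trend adjusted p = 0.000866) also rose, and Thy1 (-0.41, adjusted p = 6.02e-07), Pdgfrb (-0.15, adjusted p = 0.0123) and Ly6a (-0.14, adjusted p = 0.0205) also fell. Of 6 erythroid markers, 5 had a count of 0 in every sample and Alas2 had 1 read in 1 sample, and of 5 endothelial markers Emcn was at 0 and the list summed to 1.3 to 2.6 CPM. The part of these cells in the golgin values was not tested.

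To show what lies upstream of the 5 genes with the larger differences (Tmf1, Gcc2, Trip11, Golga5 and Golga1), the 250 bases before the transcription start were read from RefSeq promoters on GRCm38.p6. The Gcc2 and Trip11 stretches end where GENCODE begins the gene, which leaves out 29 and 96 bases before the RefSeq start. Capitals mark ACGTG or GCGTG on either strand, the core letters of the elements bound by hypoxia-inducible factors.
Tmf1 promoter, chr6:97179125-97179374, minus strand: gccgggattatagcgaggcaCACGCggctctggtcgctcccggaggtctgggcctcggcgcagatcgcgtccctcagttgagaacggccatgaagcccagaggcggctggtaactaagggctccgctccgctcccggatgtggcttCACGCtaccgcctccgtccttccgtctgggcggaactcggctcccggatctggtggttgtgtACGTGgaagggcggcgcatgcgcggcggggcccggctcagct
Gcc2 promoter, chr10:58255276-58255496, plus strand: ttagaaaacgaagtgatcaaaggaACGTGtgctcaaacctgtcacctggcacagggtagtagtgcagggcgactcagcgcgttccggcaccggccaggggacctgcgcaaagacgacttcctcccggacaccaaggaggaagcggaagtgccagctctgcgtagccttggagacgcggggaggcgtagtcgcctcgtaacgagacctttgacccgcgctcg
Trip11 promoter, chr12:101913268-101913421, minus strand: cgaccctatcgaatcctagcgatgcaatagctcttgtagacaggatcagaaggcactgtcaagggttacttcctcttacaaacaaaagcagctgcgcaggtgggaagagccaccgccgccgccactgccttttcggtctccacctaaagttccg
Golga1 promoter, chr2:39065542-39065791, minus strand: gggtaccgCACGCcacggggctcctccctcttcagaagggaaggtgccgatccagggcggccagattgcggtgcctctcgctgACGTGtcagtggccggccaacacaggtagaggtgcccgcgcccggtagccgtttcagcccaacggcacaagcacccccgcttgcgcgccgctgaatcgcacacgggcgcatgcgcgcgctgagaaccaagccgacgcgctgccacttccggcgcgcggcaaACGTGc
Golga5 promoter, chr12:102468884-102469133, plus strand: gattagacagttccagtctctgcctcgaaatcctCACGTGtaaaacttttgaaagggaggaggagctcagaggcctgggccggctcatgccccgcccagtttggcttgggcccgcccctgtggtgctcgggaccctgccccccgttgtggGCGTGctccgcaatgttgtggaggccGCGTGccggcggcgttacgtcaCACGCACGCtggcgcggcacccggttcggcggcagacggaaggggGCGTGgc

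The Tmf1 window contained ACGTG 1 time and GCGTG 2 times, and the Golga1 window contained them 2 times and 1 time. The Gcc2 window contained ACGTG 1 time and no GCGTG, and the Trip11 window contained neither. The Golga5 window held 1 CACGTG, a palindrome that reads as ACGTG on both strands and so counts 2 times, and 5 matches to GCGTG. RefSeq promoters were found for 8 of the 10 golgins, in 9 windows since Golga5 has a pair of starts, and 7 of the 9 windows held ACGTG or GCGTG. The window of Golga3, like that of Trip11, held neither ACGTG nor GCGTG. These letters are common, since 38.6% of the 32851 mouse promoter windows of the same length held at least 1 of them (16.6% ACGTG, 28.2% GCGTG). These shares were not matched for GC content. It was 36.8% to 69.6% in the golgin windows, 68.4% in that of Tmf1, and 52.4% in the median window. ACGTGGC, the Golgi stress element bound by TFE3, which contains the letters of ACGTG, and TGACGTCA, the cyclic AMP response element, were in 0 of the 9 windows and in 2.02% and 1.55% of all windows. In the whole 300-base windows, which run on past the start, ACGTG or GCGTG was in 8 of the 9 golgin windows, Golga3 included, and in 43.8% of all promoters. There ACGTGGC was found in Golga3 alone and in 2.58% of all promoters, and TGACGTCA in 0 golgin windows and 1.79% of all promoters. These matches describe letters and not binding.

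Tmf1 showed the largest difference of the 10 golgins. The gene (ENSMUSG00000030059, GRCm38 chromosome 6, 97152997 to 97179122, minus strand) encodes a golgin of the trans-Golgi that binds Rab6 and was first described as a protein that binds TATA elements and as a partner of the androgen receptor. Its counts in hypoxia replicates 1 to 4 were 344, 209, 119 and 129, or 14.4, 16.8, 9.29 and 9.94 CPM. In normoxia they were 539, 531, 512 and 461, or 40.0, 38.2, 37.0 and 34.7 CPM. The groups did not overlap, and the highest hypoxia value, 16.8 CPM, was well below the lowest normoxia value, 34.7 CPM. The 4 normoxia samples lay close together, whereas the hypoxia samples fell into a higher pair, replicates 1 and 2, and a lower pair, replicates 3 and 4. The mean log2 CPM was 3.64 ± 0.40 (SD, n = 4) in hypoxia and 5.23 ± 0.086 (SD, n = 4) in normoxia, a difference of 1.60 (SE 0.16), or 3.03-fold. Tmf1 ranked number 20 among the 14369 genes by the size of the increase in normoxia.

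Among the other golgins of the trans face, Gcc2 (ENSMUSG00000038039, chromosome 10, 58255497 to 58305599), a GRIP domain golgin that receives vesicles from endosomes, was measured at 11.8, 17.4, 8.98 and 11.4 CPM in hypoxia replicates 1 to 4. In normoxia Gcc2 was at 25.0, 21.0, 21.1 and 25.5 CPM. Hypoxia replicate 2 was the highest of its group and came nearest to the normoxia samples, and the log2 difference was 0.92 (SE 0.16). Golga1 (ENSMUSG00000026754, chromosome 2, 39016155 to 39065541), which encodes golgin-97 and is recruited by the small GTPase Arl1, was at 12.5, 15.8, 9.99 and 12.4 CPM in hypoxia. Its normoxia values were 22.4, 22.4, 17.9 and 21.6 CPM, and the log2 difference was 0.74 (SE 0.13). The lowest normoxia sample, replicate 3, was above the highest hypoxia sample, replicate 2, so the groups did not overlap.

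Golga4 and Gcc1 also carry the GRIP domain that Arl1 binds or that targets the trans-Golgi. Golga4 (ENSMUSG00000038708, chromosome 9, 118506267 to 118582519) was at 60.7, 64.2, 56.8 and 53.8 CPM in hypoxia and at 74.3, 79.4, 85.5 and 85.3 CPM in normoxia, a log2 difference of 0.46 (SE 0.072). Gcc1 (ENSMUSG00000029708, chromosome 6, 28416091 to 28428390) was at 35.7, 34.6, 32.5 and 32.9 CPM in hypoxia and at 35.7, 38.0, 37.9 and 33.2 CPM in normoxia. Its groups overlapped, normoxia replicate 4 lying below hypoxia replicates 1 and 2, and the log2 difference was 0.092 (SE 0.070), or 1.07-fold. The 4 GRIP golgins thus ranged from 0.092 to 0.92 on the log2 scale.

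On the cis face, Golga2 (ENSMUSG00000002546, chromosome 2, 32287384 to 32307921), which encodes GM130 and holds the vesicle tether Uso1 at the membrane, was at 103, 92.3, 89.8 and 77.2 CPM in hypoxia. In normoxia Golga2 was at 111, 120, 116 and 117 CPM, a log2 difference of 0.36 (SE 0.079). Trip11 (ENSMUSG00000021188, chromosome 12, 101834043 to 101913267) encodes GMAP-210, whose loss causes a lethal skeletal dysplasia. It was at 38.8, 41.6, 32.8 and 26.7 CPM in hypoxia and at 60.5, 59.2, 56.4 and 63.2 CPM in normoxia, a log2 difference of 0.79 (SE 0.12). For both genes the lowest hypoxia value was that of replicate 4, and the groups did not overlap.

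Golga5 and Golgb1 encode golgin-84 and giantin, which cross the membrane with a C-terminal segment and lie on the rims, where they act in traffic within the stack. Golga5 (ENSMUSG00000021192, chromosome 12, 102469135 to 102497907) was at 24.7, 22.9, 20.3 and 21.1 CPM in hypoxia and at 37.3, 41.6, 36.7 and 37.7 CPM in normoxia, a log2 difference of 0.78 (SE 0.081). Golgb1 (ENSMUSG00000034243, chromosome 16, 36875140 to 36933085) was at 101, 110, 86.3 and 84.3 CPM in hypoxia and at 122, 136, 120 and 131 CPM in normoxia, a log2 difference of 0.42 (SE 0.086). Golga3 (ENSMUSG00000029502, chromosome 5, 110176701 to 110226470), which encodes golgin-160, a peripheral golgin, was at 95.7, 89.1, 74.7 and 71.2 CPM in hypoxia and at 104, 101, 99.7 and 102 CPM in normoxia. The log2 difference of Golga3 was 0.31 (SE 0.086), and the groups of all 3 genes stood apart.

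**Figure D1:**
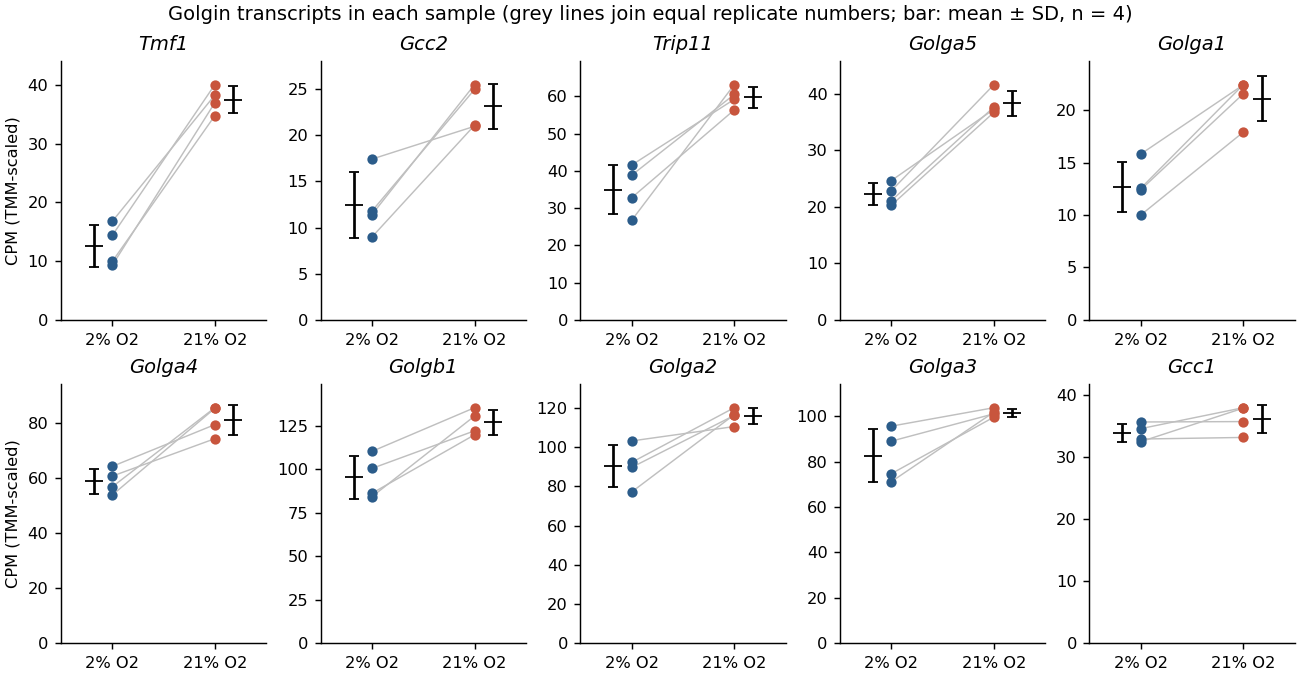
TMM-scaled CPM of each golgin in the 4 hypoxia (2% O2) and 4 normoxia (21% O2) samples, one panel per gene with its own axis from 0. Grey lines join equal replicate numbers and bars give the mean ± SD. Gcc1 is the gene whose groups overlap, and the Tmf1 samples lie at 9.29 to 16.8 CPM in hypoxia and 34.7 to 40.0 CPM in normoxia.

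Across the set, 9 of 10 golgins were higher in normoxia at an adjusted p under 0.05 in the limma-trend fit over all genes and 0 were lower, Gcc1 being the one that did not pass. Among all genes tested, 18.0% passed as higher in normoxia and 16.5% as lower. The same 9 golgins passed, all of them higher, when the replicate number was fitted as a block (23.3% of all genes higher, 22.7% lower) and after a correction for transcript GC content and length (15.5% of all genes higher, 14.5% lower). The groups did not overlap for 9 of 10 golgins, all higher in normoxia, where 17.1% of all genes lay entirely higher and 15.5% entirely lower. Because the set was selected on this contrast, the counts describe the set and no more is read from them. The median log2 difference of the 10 golgins was 0.60, and 0.46 for the 9 other than Tmf1, compared with 0.0049 over all genes. Without hypoxia replicate 3, Golga3 no longer passed and the count was 8 of 10.

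Compared within each replicate number, 10 of 10 golgins were higher in normoxia in 4 of 4 pairs. The share of all genes higher in every pair was not counted, so this count describes the set only. The size varied between pairs. For Tmf1 the log2 difference was 1.46, 1.18, 1.97 and 1.78 in replicate numbers 1 to 4. Gcc2 differed by 1.07, 0.26, 1.21 and 1.15, with the small value in replicate number 2, and Trip11 by 0.64, 0.51, 0.78 and 1.23, with the large value in replicate number 4. Golga5 was the most even of the 5 golgins with the larger differences, at 0.59, 0.86, 0.85 and 0.83. The pairs of Gcc1 differed by 0.0026, 0.13, 0.22 and 0.011.

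**Figure D2:**
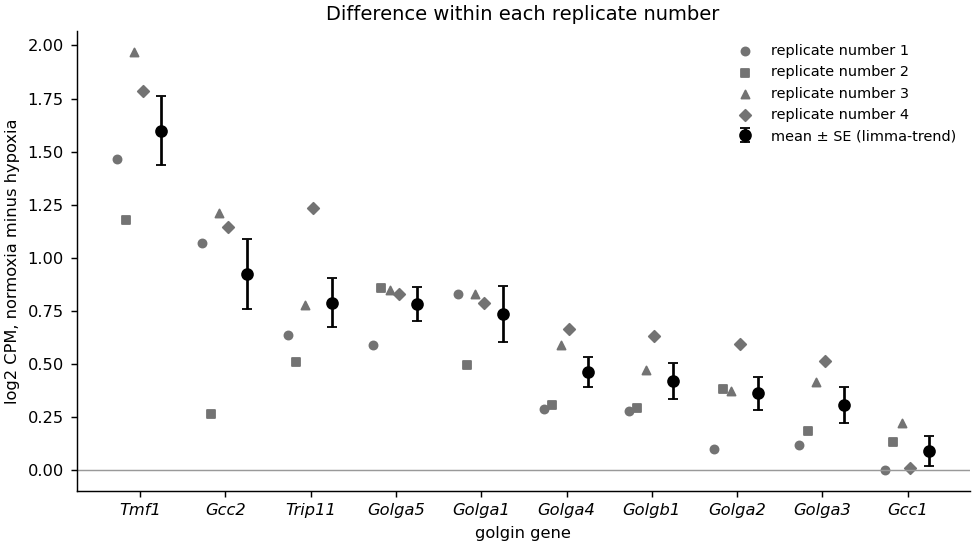
Difference in log2 CPM (normoxia minus hypoxia) of each golgin within each replicate number (grey symbols), with the limma-trend mean ± SE in black, genes ordered by the mean. All symbols lie above 0, and those of Tmf1 range from 1.18 to 1.97.

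Levels of different golgins were compared as CPM per kilobase of exon. The length was the union of all annotated exons, which for some golgins far exceeds the longest transcript. For Golga4 these lengths were 13602 and 7583 bases, for Golga3 12671 and 8132, and for Gcc1 5287 and 4650. The order and its steps therefore depend on the length used and hold for the exon union only. In hypoxia the order was Golga2 at 16.5 ± 1.9 (SD, n = 4), Golgb1 at 8.04 ± 1.0, Golga3 at 6.52 ± 0.92, Golga5 at 6.45 ± 0.56, Gcc1 at 6.41 ± 0.28, Golga4 at 4.33 ± 0.33, Trip11 at 3.45 ± 0.65, Golga1 at 2.28 ± 0.43, Tmf1 at 2.2 ± 0.63 and Gcc2 at 1.29 ± 0.37. The steps from Golga2 to Golgb1 and from Gcc1 to Golga4 exceeded the spread, whereas all other neighbours in the order overlapped. The cis-Golgi golgin GM130, the product of Golga2, therefore had the most abundant transcript per length, and Tmf1 and Gcc2 were at the bottom.

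In normoxia the order of CPM per kilobase was Golga2 at 21.1 ± 0.72 (SD, n = 4), Golga5 at 11.1 ± 0.65, Golgb1 at 10.7 ± 0.62, Golga3 at 8.02 ± 0.14, Gcc1 at 6.84 ± 0.43, Tmf1 at 6.54 ± 0.39, Golga4 at 5.96 ± 0.40, Trip11 at 5.89 ± 0.28, Golga1 at 3.78 ± 0.39 and Gcc2 at 2.40 ± 0.25. Neighbours overlapped between Golga5 and Golgb1 and along the run from Gcc1 to Trip11, and the other steps exceeded the spread. By this exon length, Tmf1 moved from place 9 to place 6 and Golga5 from place 4 to place 2. The summed golgin level was 456 ± 52.9 CPM in hypoxia and 642 ± 13.9 CPM in normoxia (SD, n = 4). Tmf1 made up 2.72% ± 0.49 of the golgin counts in hypoxia and 5.84% ± 0.41 in normoxia, with ranges of 2.2 to 3.32% and 5.34 to 6.33%. Without Tmf1, the golgins still summed to 444 ± 49.5 CPM in hypoxia and 604 ± 14.8 CPM in normoxia.

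**Figure D3:**
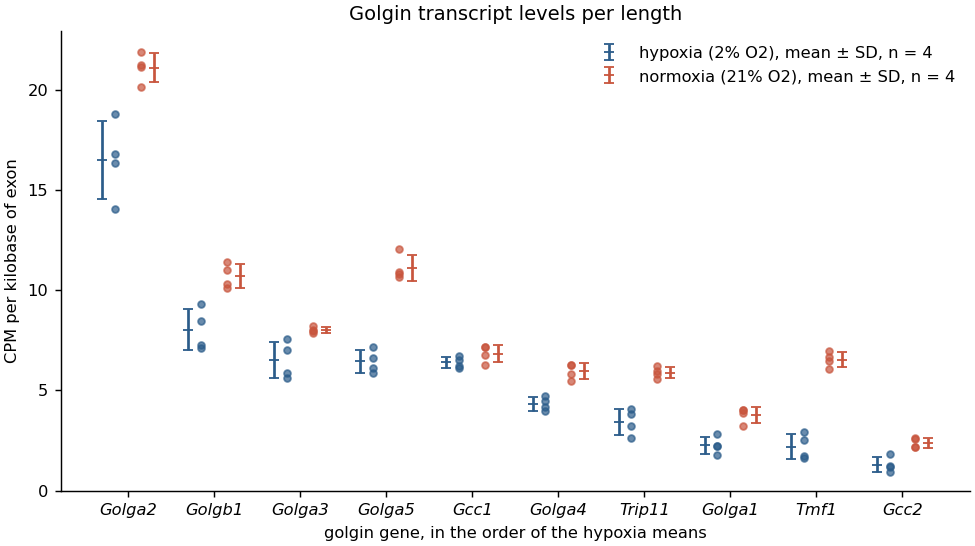
CPM per kilobase of exon of each golgin in the 4 hypoxia and 4 normoxia samples, with mean ± SD, genes in the order of the hypoxia means. Golga2 is highest in both groups, and Tmf1 has means of 2.2 in hypoxia and 6.54 in normoxia.

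Of the 5 golgins with the larger differences, 4 had transcripts of 39.7 to 44.6% GC, below the median gene, and Golga5, at 49.4%, was close to it. The longest Tmf1 transcript contained 39.7% GC, which lay at percentile 5.46 of the tested genes, and that of Gcc2 41.1%, at percentile 9.71, where the median gene had 49.7%. Across the 10 golgins, which share the same 8 libraries, Spearman's rho of the log2 difference was -0.82 with GC content, -0.75 with the hypoxia level per kilobase and 0.055 with transcript length. Tmf1, which has the lowest GC content of the set, was chosen for its rise. The rho over all genes is not given here, so these values describe the set only. The difference contains the hypoxia level with a negative sign, so a negative rho with that level is partly built in. After the difference was corrected for the trend with GC content and length over 14353 genes, Tmf1 differed by 1.37, Golga5 by 0.75, Gcc2 by 0.71, Trip11 by 0.64 and Golga1 by 0.57 on the log2 scale. The other corrected differences were 0.47 for Golga2, 0.46 for Golga4, 0.44 for Golgb1, 0.21 for Golga3 and 0.11 for Gcc1. The median was then 0.52, and rho with GC content was -0.67. The correction moved Golga2, whose transcript had 55.3% GC, upward by 0.10 and Tmf1 downward by 0.23.

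**Figure D4:**
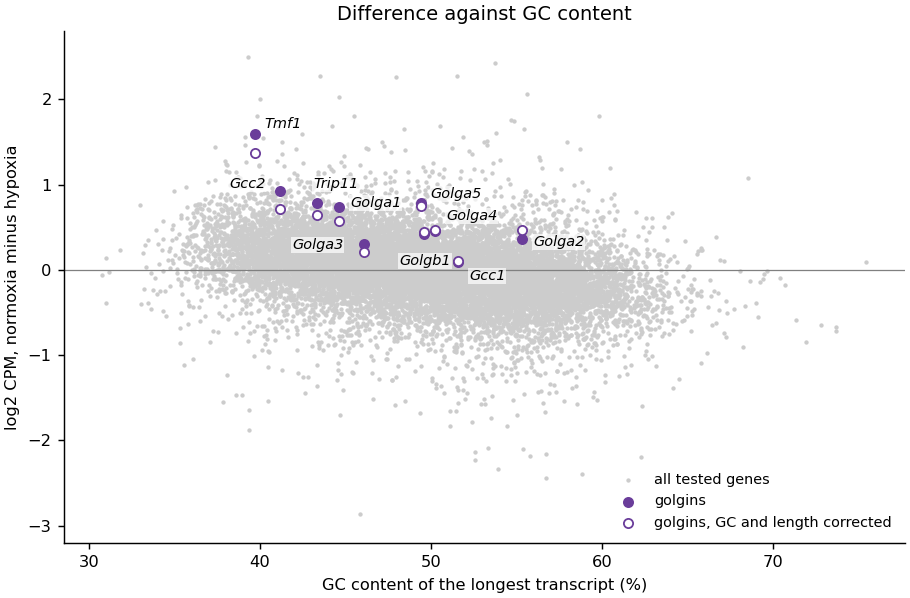
Log2 difference (normoxia minus hypoxia) against the GC content of the longest transcript for all tested genes (grey) and the golgins before (filled) and after (open) correction for GC content and length. Tmf1 lies at 39.7% GC and moves from 1.60 to 1.37.

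Genes that overlap the golgins on the genome limit 2 of the values, since the sources do not state whether counting used strand. Arf5, a small GTPase that recruits the COPI coat, lies within Gcc1 on the opposite strand (chromosome 6, 28423560 to 28426602) and was lower in normoxia, with a log2 difference of -0.56 (SE 0.066, limma-trend adjusted p = 0.000136), or -0.28 with the GC and length correction. Swi5, a DNA repair gene, overlaps the start of Golga2 on the opposite strand and was lower, with a log2 difference of -0.19 (SE 0.055, limma-trend adjusted p = 0.0204), or -0.35 with that correction. Reads of Gcc1 and Arf5, or of Golga2 and Swi5, may therefore not be told apart where the genes overlap. The other overlapping genes had at most 11 counts in a sample. The nearest coding genes beside Tmf1 also rose in normoxia, by 0.47 (SE 0.092, limma-trend adjusted p = 0.00239) for Eogt, an O-GlcNAc transferase of the endoplasmic reticulum, and by 0.51 (SE 0.075, limma-trend adjusted p = 0.000449) for Uba3, a subunit of the NEDD8-activating enzyme. With the correction the rise of Uba3 was 0.31. These genes lie 3815 and 4548 bases from Tmf1.

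The profile of Tmf1 over the 8 samples, centred on its mean, was compared with that of 9394 genes with a mean log2 CPM of at least 3. The smallest root mean square difference belonged to Kif21a, a kinesin, at 0.15 on the log2 scale, followed by Map3k14, the kinase NIK, at 0.18, Mphosph10, a nucleolar protein of ribosomal RNA processing, at 0.25, Ddias at 0.25 and Gadd45g, a growth arrest gene, at 0.27. In hypoxia replicates 1 to 4, Kif21a was at 3.63, 3.71, 3.31 and 3.38 log2 CPM, and in normoxia at 4.96, 5.05, 5.03 and 5.00. Kif21a had the same higher and lower pairs of hypoxia samples as Tmf1, which is largely built in, since it was picked for this likeness. Of the golgins, Gcc2 came nearest at rank 38 (0.38), then Trip11 at rank 86, Golga5 at rank 119 and Golga1 at rank 137, and Gcc1 was farthest at rank 3407 (0.79). The size of the rise in normoxia enters this measure. The golgin ranks followed the order of their log2 differences and show no likeness to Tmf1 beyond it.

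The golgins were then set beside 146 other genes of the Golgi in 9 lists. Of these, 49 (33.6%) were higher and 23 (15.8%) lower in normoxia at a limma-trend adjusted p under 0.05. Each list count is to be read beside the shares of all genes, 18.0% higher and 16.5% lower. These shares were 15.5% and 14.5% with the GC and length correction, and 21.8% and 21.5% with the replicate block added to it. Scaling by library size alone, without TMM factors, shifted the split of the lists to 63 higher and 12 lower. It shifted that over all genes called from 2592 higher and 2378 lower to 3611 higher and 1575 lower. The 8 GTPase genes higher and 2 lower, 13 tethers higher and 3 lower, 7 COPI genes higher and 0 lower, 9 COPII genes higher and 0 lower, 7 glycosylation enzymes higher and 4 lower, 2 stacking genes higher and 1 lower and 3 Tmf1 partners higher and 2 lower under that scaling differ from the counts given for each list here, which use TMM. Among 10 other golgins and coiled-coil proteins of the Golgi, 8 rose, 0 fell and 2, Cux1 and Bicd1, did not pass the test, with a median log2 difference of 0.64. Uso1, which encodes the tether p115 that binds GM130 and giantin, rose by 0.77 (SE 0.090, limma-trend adjusted p = 0.000134). Its counts were 2531, 1137, 1018 and 1018 in hypoxia replicates 1 to 4 and 2163, 2026, 2125 and 1865 in normoxia. Relative to the totals, all normoxia samples were above all hypoxia samples. Golim4, a cis-Golgi protein that cycles to endosomes, rose by 0.69 (SE 0.10, limma-trend adjusted p = 0.000462).

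Of 24 small GTPases of the Golgi and their activators, 6 rose and 6 fell, with a median of -0.019. The exchange factors Arfgef1 and Arfgef2, which activate Arf proteins at the trans-Golgi, rose by 0.53 (SE 0.092, limma-trend adjusted p = 0.00104) and 0.33 (SE 0.064, adjusted p = 0.00218). Arf5 fell as given above, and Sys1, the membrane protein through which Arfrp1 acts on Arl1, fell by 0.35 on the log2 scale (SE 0.10, limma-trend adjusted p = 0.0217). Sys1 no longer passed without hypoxia replicate 3 or 4, or without normoxia replicate 2 or 3. The count of 12 became 6 without normoxia replicate 3, and with the GC and length correction 2 rose and 7 fell (4 and 8 with the replicate block as well), Arfgef1 then rising by 0.34.

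Among 27 subunits of the multisubunit tethers COG, GARP, EARP and TRAPP, 11 rose and 5 fell, with a median of 0.11. Vps50 of EARP rose by 0.61 (SE 0.084, limma-trend adjusted p = 0.000307) and Trappc8 of TRAPP by 0.57 (SE 0.083, limma-trend adjusted p = 0.000409). Trappc6a fell by 0.46 (SE 0.10, limma-trend adjusted p = 0.00523) and Vps51 by 0.37 (SE 0.096, limma-trend adjusted p = 0.0101) on the log2 scale. With the GC and length correction 8 of the tethers rose and 1 fell (10 and 1 with the replicate block as well), Vps50 rose by 0.38 and Trappc8 by 0.37, and Trappc6a and Vps51 did not pass (limma-trend adjusted p = 0.223 and 0.163). Adding the block to the correction left both short of the threshold (limma-trend adjusted p = 0.124 and 0.107).

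Of 16 SNAREs and their regulators, 3 rose, 0 fell and 13 did not pass, with a median of 0.045. The 18.8% of this list that rose was near the 18.0% of all genes. Scfd1, the regulator of the cis-Golgi SNARE syntaxin 5, rose by 0.58 (SE 0.071, limma-trend adjusted p = 0.000153) and Vps45 by 0.35 (SE 0.092, limma-trend adjusted p = 0.011). With the GC and length correction Scfd1 rose by 0.36, and 6 SNARE genes rose and 0 fell (6 and 2 with the replicate block as well). Of 13 genes of stacking and matrix-associated proteins, 1 rose and 1 fell. These were Acbd3, which binds giantin, at 0.30 (SE 0.069, limma-trend adjusted p = 0.006), and Tmem115 at -0.33 (SE 0.058, limma-trend adjusted p = 0.00121). Neither passed with the GC and length correction (limma-trend adjusted p = 0.407 and 0.191), nor when the block was added to it (limma-trend adjusted p = 0.297 and 0.112). Under the correction 0 stacking genes rose and 4 fell, or 0 and 5 once the block was added.

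In the COPI coat, which carries cargo back through the stack, 6 of 12 genes rose and 2 fell, with a median of 0.16. Copb1 and Copb2 rose by 0.45 (SE 0.060, limma-trend adjusted p = 0.000264) and 0.31 (SE 0.057, adjusted p = 0.00156), and Copz1 and Copz2 fell by 0.22 (SE 0.060, limma-trend adjusted p = 0.0141) and 0.17 (SE 0.057, adjusted p = 0.0388) on the log2 scale. The call of 8 COPI genes became 5 with the GC and length correction, without hypoxia replicate 3 or 4 and without normoxia replicate 2 or 3, and Copz2 also lost its call without hypoxia replicate 1 or normoxia replicate 4. With the GC and length correction Copb1 rose by 0.25 and Copb2 by 0.20, and Copz2 did not pass (limma-trend adjusted p = 0.324). Its adjusted p in limma-trend was 0.248 once the block was added.

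In the COPII coat and the exit sites of the endoplasmic reticulum, 6 of 16 genes rose and 1 fell, with a median of 0.13. Mia2, an exit site protein for large cargo, rose by 0.73 (SE 0.094, limma-trend adjusted p = 0.00021) and Sec13 of the outer coat by 0.48 (SE 0.095, limma-trend adjusted p = 0.00247). Sec24a, a cargo adaptor, fell by 0.23 on the log2 scale (SE 0.067, limma-trend adjusted p = 0.0213), and it no longer passed without hypoxia replicate 3 or normoxia replicate 3. With the GC and length correction, 5 genes of this list rose and 2 fell (6 and 3 with the replicate block as well), and Sec24a differed by -0.40.

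Of 21 glycosylation enzymes, 6 rose and 6 fell, with a median of 0.062. Galnt1, which starts mucin-type O-glycans, rose by 0.47 (SE 0.074, limma-trend adjusted p = 0.000661) and Mgat5, which branches N-glycans, by 0.42 (SE 0.077, limma-trend adjusted p = 0.00158). With the GC and length correction the rise of Galnt1 was 0.31. The sialyltransferases St6gal1 and St3gal1 fell by 0.77 (SE 0.23, limma-trend adjusted p = 0.0225) and 0.44 (SE 0.078, adjusted p = 0.00128) on the log2 scale, St6gal1 losing its call without hypoxia replicate 3 or 4. Of 7 reported protein partners of Tmf1, 2 rose and 2 fell. Stat3, a transcription factor of cytokine signalling, rose by 0.43 (SE 0.076, limma-trend adjusted p = 0.0013) and the kinase Fer by 0.27 (SE 0.068, limma-trend adjusted p = 0.00902). Trnp1 and Rela fell by 0.36 (SE 0.098, limma-trend adjusted p = 0.0134) and 0.36 (SE 0.069, adjusted p = 0.00203) on the log2 scale. With the GC and length correction, Fer, Trnp1 and Rela did not pass (limma-trend adjusted p = 0.149, 0.595 and 0.106), and 2 partners rose and 0 fell. With the replicate block added to that correction Rela passed (limma-trend adjusted p = 0.00981), Fer and Trnp1 did not (adjusted p = 0.119 and 0.465), and 2 partners rose and 2 fell.

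**Figure D5:**
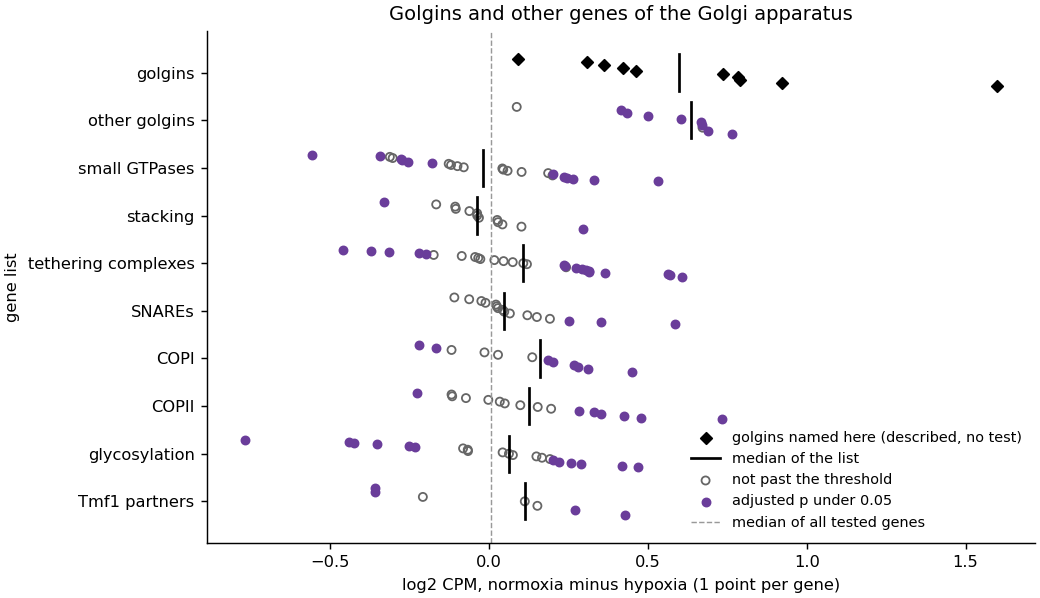
Log2 difference (normoxia minus hypoxia) of each golgin (black diamonds, described without a test) and of each gene in 9 other Golgi lists (filled where the limma-trend adjusted p was under 0.05, open otherwise), with list medians as bars and the median of all genes as a dashed line. The median is 0.60 for the golgins and 0.64 for the other golgins, and between -0.038 and 0.16 for the other lists.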

How the data were processed

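RNA-seq was analysed from 4 hypoxia and 4 normoxia samples. The authors ran zUMIs on the single-end reads, with STAR as the aligner, samtools, and featureCounts as the counter against mm10 and Ensembl genes, and deposited raw counts per gene. Strand, intron and multi-mapping settings are not given in the sources used here. The study calls the replicates biologically independent. Total counts were 12898291 to 25132141.

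Symbols and positions were taken from GENCODE on GRCm38, 53360 of 53465 identifiers being matched. Following the study's methods, genes were kept by filterByExpr of edgeR 4.0.16 (minimum count 5), and 14369 genes were fitted with limma-trend (limma 3.58.1, R 4.3.3). TMM factors and a prior count of 3 were chosen here, since the study states neither. The fit was made on log2 CPM, normoxia minus hypoxia, with Benjamini-Hochberg adjustment over all of them and a threshold of 0.05. A fold change on this scale understates the change of low genes. CPM values printed are TMM-scaled, except the summed levels of the cell type markers, which are scaled to the library total only. Values given as log2 CPM include the prior count. No replicate pair of a group differed by less than the sampling noise. The fit was tested on simulated data, with the dispersion estimated from these samples and the limits of the test set after its first results had been seen. It missed some of the changed genes, mostly those of low counts, so that a gene that did not pass is not shown to be unchanged. Alternatives were edgeR's quasi-likelihood test, DESeq2 1.42.0, limma-voom, other scalings, filters and prior counts, a replicate block, a spline correction for GC content and length, and leaving out each sample.

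By the study's methods the sorted cells were split between the oxygen levels. Deviations of same-numbered samples from their group means correlated at 0.47, 0.28, 0.25 and 0.17. Samples of different numbers were not compared, and the sources used here do not state that equal numbers mark the same sort. The main fit therefore leaves the number out, and the replicate block is an alternative. The members and lists were chosen with earlier results of these data known. Named genes were the 10 golgins, at most the 2 largest rises and falls past the threshold in each list, the 5 profiles nearest to Tmf1, and genes overlapping a golgin or beside Tmf1. Promoter letters were counted before the start only, a limit set after the whole windows had been searched, so both results are given.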

Additional observations from a re-analysis of the deposited data

Results flagged for a closer look

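Among 24 sets of 4 values searched (total counts, golgin levels and their sums), 1 held a sample far from the others, where chance gives about 1.2. The total count of hypoxia replicate 1 was 25132141, and the other 3 hypoxia samples had 12929564 to 13219647. It also had the highest CPM of the hypoxia samples for Golga2, Golga3, Golga5 and Gcc1. Without it the same 9 golgins were past the threshold.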

How the results depend on the processing

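Under 19 alternatives, 10 of 10 golgins kept a higher level in normoxia. Their median log2 difference ranged from 0.52 to 0.69, Tmf1 from 1.37 to 1.75 and Gcc1 from 0.057 to 0.18, and Gcc1 was past the threshold in 0 of them. Golga3 was not past it without hypoxia replicate 3. The number of all genes called was 4970, between 3838 without hypoxia replicate 3 and 6610 with the replicate block, and Golgi list genes called 72, between 56 and 82. With the replicate block the lists held 56 higher and 26 lower, and the block ended no call of a named gene. Scaling by library size alone moved the median of all genes to 0.089, and Sys1, Copz1, Copz2 and Sec24a then lost their calls. The COPI list also fell to 5 calls without the filter, the SNARE list rose to 6 by library size and to 8 with the block and the GC correction together, and limma-voom ended the call of St6gal1. The cause was not tested. Of the values for single genes and lists, 899 kept their side of the threshold or size, 35 lost the call and 16 moved. Depth limits the low golgins most, at 115 counts in the lowest sample.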
